A study of Caenorhabditis elegans with 9 samples.

Results

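The lys genes of *Caenorhabditis elegans*, lys-1 to lys-10, encode one family of lysozymes, and they were taken by gene name as a set. The set was chosen by measured values, the CPM of lys-4, lys-5 and lys-6, which were far lower in mutants of the nuclear hormone receptor gene nhr-114 than in wild type. All 10 were present among the 20445 genes measured. RNA was sequenced from whole animals at the fourth larval stage (L4) in 3 groups of 3 libraries. The groups were wild type with vehicle supplied to the mother, the nhr-114(gk849) mutant with maternal vehicle, and the same mutant with maternal vitamin B12 at 8 µM. What the vehicle was, and whether replicates came from separate cultures, is not stated in the labels, so p-values measure the spread between these libraries, which may be technical. Wild type with maternal B12 was not analysed here, so a B12 effect can be read in the mutant alone.

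Lysozymes cut peptidoglycan, the polymer of the bacterial cell wall. *C. elegans* lives on bacteria, and its intestine makes lysozymes that serve both digestion and defence. The lys genes belong to a type related to lysozymes of protists, while the ilys genes encode the separate invertebrate type. Several lys genes are known as immune effectors: lys-7 is a target of the FOXO factor DAF-16, lys-8 responds to the TGF-beta ligand DBL-1, and lys-1, lys-7 and lys-8 are induced by pathogenic bacteria. NHR-114 is a receptor of the HNF4 family that is active in the intestine and germline, and fertility of its mutants depends on diet and on B12.

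Library totals ran from 14461993 to 16659895 estimated counts. The labelled genotype was visible in nhr-114 itself, with 6954, 8027 and 7436 counts in wild type and 2 to 4 counts in each of the 6 mutant libraries. The libraries also differed in the expression of sperm genes. A spermatogenesis level, the mean z-score of 32 sperm genes, ran from 0.09 to 0.53 in wild type. It lay between -1.51 and -0.72 in the mutant vehicle libraries and between 0.40 and 0.93 in the mutant B12 libraries. The matched markers of intestine, pharynx, neurons, hypodermis and muscle were all detected in at least 1 library. In such bulk RNA, fewer cells of a type and less RNA per cell cannot be told apart.

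Expression levels are given as CPM, counts scaled to library size with TMM factors, when 1 gene is compared between libraries. Levels are given as TPM, which also accounts for transcript length, when genes are compared with each other. Of the 10 genes, 8 passed the filter on low counts and were tested. lys-6 passed it only through its wild-type libraries. lys-9 and lys-10 did not pass.

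lys-4 was the dominant lysozyme transcript of the family in wild type. It stood at 1928, 2615 and 2425 TPM in the 3 wild-type libraries and made up 73.5% ± 1.69 of the family's summed TPM (SD, n = 3). In mutant vehicle it stood at 55.9, 73.7 and 66.2 TPM, or 6.78% ± 0.687 of the family. In mutant B12 it stood at 145, 182 and 170 TPM, or 16.3% ± 1.95. The 3 groups did not overlap in either measure.

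The family as a whole was lower in both mutant groups. Its summed level was 2691, 3526 and 3241 TPM in wild type, 930, 1008 and 944 TPM in mutant vehicle and 1024, 1024 and 988 TPM in mutant B12. The mutant groups overlapped each other and lay below every wild-type library. The order in TPM differed for lys-1, lys-2 and lys-3. Together they reached a mean of 521 TPM in wild type, 714 in mutant vehicle and 661 in mutant B12. For this sum the libraries ran from 486 to 546, 686 to 761 and 641 to 684 TPM, with both mutant groups above wild type. It leaves out lys-7 and lys-8, whose mean TPM was lower in both mutant groups than in wild type. In CPM, lys-8 overlapped between all groups. The order of the mutant groups in the sum depends on the scale. In CPM the mean of lys-1, its largest part, was 476 in mutant vehicle and 580 in mutant B12. Those of lys-2 (197 and 129) and lys-3 (3.87 and 2.74) went the other way.

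**Figure D1:**
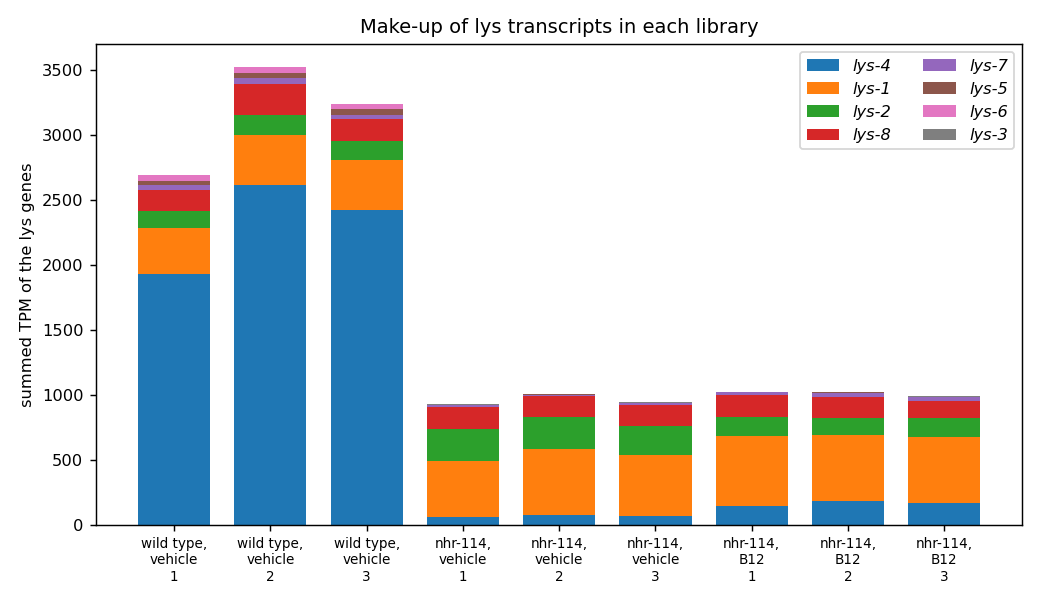
Summed TPM of the lys genes in each of the 9 libraries, as stacked bars divided by gene; lys-9 had no counts and lys-10 is too low to draw. The wild-type bars reach 2691 to 3526 TPM and consist mostly of lys-4, while the mutant bars reach 930 to 1024 TPM, with lys-1 as the largest share in each.

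The rank order of the members changed with genotype. In wild type the order by mean TPM was lys-4 (2323), lys-1 (373), lys-8 (193), lys-2 (145), lys-6 (40.0), lys-5 (38.5), lys-7 (37.5), lys-3 (2.64) and lys-10 (0.574). lys-6, lys-5 and lys-7 overlapped each other there, and each other neighbouring pair was apart. In mutant vehicle lys-1 led with 471 TPM, followed by lys-2 (238), lys-8 (163), lys-4 (65.3), lys-7 (15.6), lys-3 (4.91), lys-5 (1.45) and lys-6 (0.866). There the overlaps were between lys-5 and lys-6 and between lys-10 and lys-9, the lowest pair. In mutant B12 lys-1 led again with 517 TPM, and lys-4 (165), lys-8 (155) and lys-2 (141) followed with overlapping libraries.

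The difference between mutant vehicle and wild type was used to choose these genes, so it is described here without a test. lys-4 (WBGene00003093, WBcel235 chromosome IV, 11621429 to 11623174, minus strand) stood at 1066, 1372 and 1277 CPM in wild type and at 31.7, 43.0 and 37.0 CPM in mutant vehicle. lys-5 (WBGene00003094, chromosome IV, 11624252 to 11625582, minus strand) stood at 16.2, 19.9 and 20.6 CPM against 0.409, 1.26 and 0.617 CPM. lys-6 (WBGene00003095, chromosome IV, 11626910 to 11627947, minus strand) stood at 21.7, 20.7 and 18.99 CPM against 0.614, 0.251 and 0.555 CPM. For all 3 genes every mutant library lay far below every wild-type library, at a mean of 3.01%, 4.02% and 2.31% of the wild-type mean. The log2 fold changes were -5.05 ± 0.16, -4.61 ± 0.32 and -5.42 ± 0.32 (SE). They were the 3 members at least 10-fold lower, a drop seen in 0.331% of all genes tested.

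lys-7, the DAF-16 target (WBGene00003096, chromosome V, 3481432 to 3482600, minus strand), was also lower in mutant vehicle. It stood at 29.7, 35.8 and 23.4 CPM in wild type and at 16.2, 9.73 and 13.3 CPM in the mutant, without overlap and with a log2 fold change of -1.18 ± 0.21. In lys-8, the DBL-1 responsive gene (WBGene00003097, chromosome II, 5586178 to 5587651, plus strand), the groups overlapped. It stood at 147, 198 and 146 CPM in wild type and at 149, 149 and 146 CPM in the mutant (-0.14 ± 0.13).

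The remaining 3 tested members were higher in mutant vehicle than in wild type. lys-1 (WBGene00003090, chromosome V, 10277904 to 10279056, plus strand), induced by pathogenic bacteria, stood at 347, 351 and 341 CPM in wild type and at 429, 529 and 468 CPM in mutant vehicle. lys-2 (WBGene00003091, chromosome V, 10280307 to 10281474, minus strand) stood at 103, 118.7 and 107 CPM against 201, 212 and 178 CPM. lys-3 (WBGene00003092, chromosome V, 10282100 to 10283544, minus strand) was low, at 1.24, 1.82 and 2.60 CPM against 4.50, 4.08 and 3.02 CPM. None of the 3 overlapped between the groups, and the log2 fold changes were 0.46 ± 0.09, 0.84 ± 0.10 and 1.03 ± 0.29. In all, 4 of the 8 genes were lower and 3 higher without overlap, against 24.3% and 26.5% of all genes tested.

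**Figure D2:**
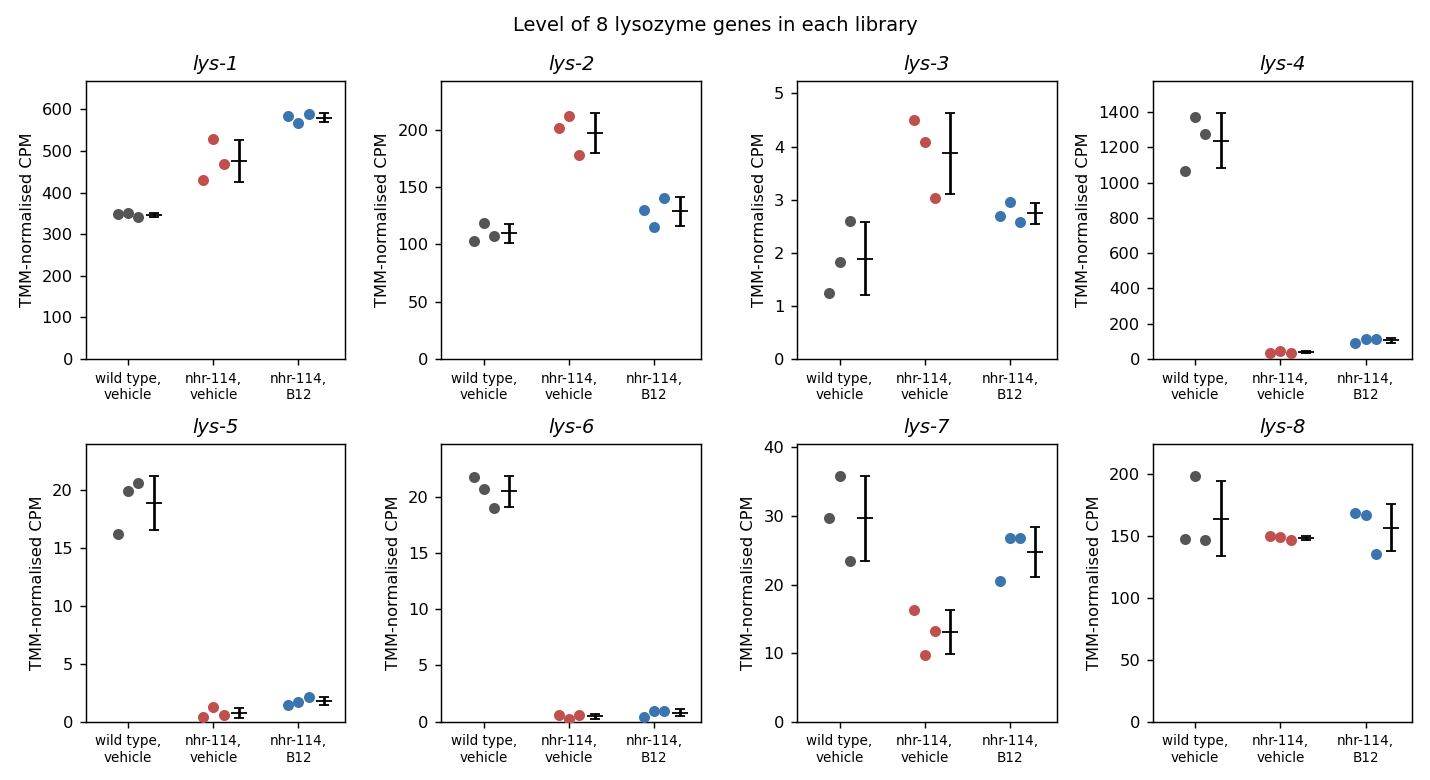
TMM-normalised CPM of the 8 tested lys genes on linear axes that start at 0, with 1 point per library and the mean ± SD of each group of 3 beside it. lys-4, lys-5 and lys-6 are near the bottom of their axes in both mutant groups, whereas lys-1 is highest in mutant B12 and lys-2 and lys-3 in mutant vehicle.

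Both sets of 3 genes lie side by side, whereas lys-7, which was also lower, lies apart. lys-4, lys-5 and lys-6 follow each other on the minus strand of chromosome IV with gaps of 1078 and 1328 bases. lys-1, lys-2 and lys-3 follow each other on chromosome V with gaps of 1251 and 626 bases, lys-1 on the opposite strand to the other two. lys-8, lys-9 and lys-10 lie apart from these groups as well.

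The nearest protein-coding genes on either side of these groups were looked up as well. F58B3.4, which lies 802 bases beyond lys-6, stood at 65.9 ± 2.73 CPM in wild type, 48.5 ± 5.60 in mutant vehicle and 57.2 ± 12.9 in mutant B12 (SD, n = 3 each). Its fall in mutant vehicle passed the test at a log2 fold change of -0.44 ± 0.15 (edgeR, Benjamini-Hochberg adjusted p = 0.0455). On the other side dsl-5, a gene of the DSL ligand family, was below the filter, with means of 0.417, 0.512 and 0.130 CPM in wild type, mutant vehicle and mutant B12. On chromosome V, B0024.3 lies 4016 bases beyond lys-3 and had a log2 fold change of 0.0035 ± 0.31 (adjusted p = 0.995), and Y22F5A.11 next to lys-1 had almost no counts.

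**Figure D3:**
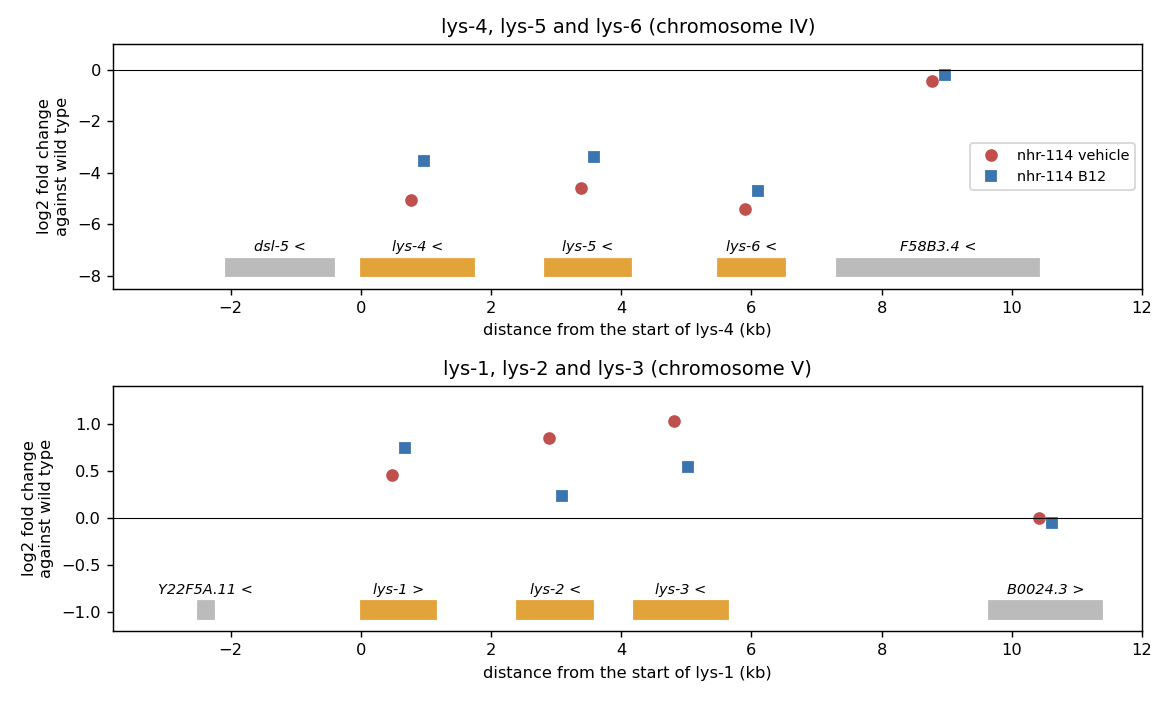
Positions of the neighbouring lys genes (orange) and of the nearest protein-coding gene on either side (grey), as distance in kb from the start of the first gene, with arrowheads for the strand. Points give the log2 fold change against wild type in mutant vehicle (circles) and mutant B12 (squares): all 3 genes of the upper group lie below -3, and all 3 of the lower group lie above 0, though lys-2 with B12 turns to -0.044 on the TPM scale.

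In the mutant, 4 lys genes were higher and 1 lower with maternal B12, a count that depends on the libraries and on the spermatogenesis level. Of the 8 tested, lys-1, lys-4, lys-5 and lys-7 rose and lys-2 fell between mutant vehicle and mutant B12, while lys-3, lys-6 and lys-8 did not pass (edgeR, Benjamini-Hochberg adjusted p under 0.05). The count of 4 became 2 without mutant vehicle replicate 1 or replicate 3, and 0 were called by edgeR with the spermatogenesis level as a covariate, where 3 were higher and 0 lower at an unadjusted p under 0.05. The background was large: 22.6% of all genes tested rose and 23.8% fell. The groups were apart with B12 higher in 4 and lower in 2 of the 8, against 27.1% and 32.1% of all genes tested. The median log2 fold change was 0.50 over the 8 genes and -0.04 over all genes tested. This comparison shares the mutant vehicle libraries with the one that chose the genes.

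lys-4 rose with every library left out in turn. It reached 89.9, 114.3 and 112 CPM with B12, above all 3 mutant vehicle libraries (31.7 to 43.0 CPM), a 2.83-fold difference of means and a log2 fold change of 1.50 ± 0.14 (adjusted p = 4.32e-05). lys-5 reached 1.46, 1.72 and 2.17 CPM, above 0.409 to 1.26 CPM, with a log2 fold change of 1.20 ± 0.36 (adjusted p = 0.0178). That call rests on few reads, 6.28 to 30.9 estimated counts per mutant library, and its adjusted p was 0.0506 without mutant vehicle replicate 1, 0.0642 without mutant vehicle replicate 3 and 0.0543 without mutant B12 replicate 3.

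lys-6 stood at 0.427, 0.964 and 0.978 CPM with B12 and overlapped the mutant vehicle libraries (log2 fold change 0.72 ± 0.40, adjusted p = 0.172). This rests on 3.58 to 14.1 estimated counts per mutant library, and lys-6 passed the filter only through wild type. lys-5 and lys-6 share reads, which kallisto divided between them. Counted as 1 feature, a choice made after seeing the data, they summed to 15, 24 and 19 counts in mutant vehicle and to 31, 39 and 45 counts in mutant B12. The groups were then apart, and the sum rose by 1.04 ± 0.23 on the log2 scale (adjusted p = 0.00386). How much of this belongs to lys-6 cannot be told apart.

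lys-7 rose to 20.5, 26.8 and 26.8 CPM, above all mutant vehicle libraries (9.73 to 16.2 CPM), with a log2 fold change of 0.92 ± 0.21 (adjusted p = 0.00509). lys-1 rose slightly, to 584, 567 and 588 CPM from 429 to 529 CPM, with a log2 fold change of 0.29 ± 0.09 (adjusted p = 0.0185). The lys-1 call was lost without mutant vehicle replicate 1 (adjusted p = 0.0744) or replicate 3 (0.0653).

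lys-2 moved the other way. It fell to 130, 115 and 141 CPM, below all mutant vehicle libraries (178 to 212 CPM), with a log2 fold change of -0.61 ± 0.10 (adjusted p = 8.49e-04). Its neighbour lys-3 stood at 2.68, 2.96 and 2.59 CPM, below the mutant vehicle libraries (3.02 to 4.50 CPM), and did not pass (-0.49 ± 0.28, adjusted p = 0.183). lys-8 stood at 168, 167 and 135 CPM and overlapped mutant vehicle, with a log2 fold change of 0.08 ± 0.13 (adjusted p = 0.656).

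The spermatogenesis level was higher in every B12 library than in every mutant vehicle library. With it as a covariate, edgeR called 29 genes in all in place of 6866, and 0 of the 8 lys genes. The log2 fold changes were then 1.84 ± 0.42 for lys-4, 2.43 ± 0.94 for lys-5, 0.70 ± 0.23 for lys-1, 0.31 ± 0.60 for lys-7 and -0.31 ± 0.30 for lys-2. The covariate overlaps strongly with the groups (variance inflation 9.83), so its part and that of B12 cannot be told apart.

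**Figure D4:**
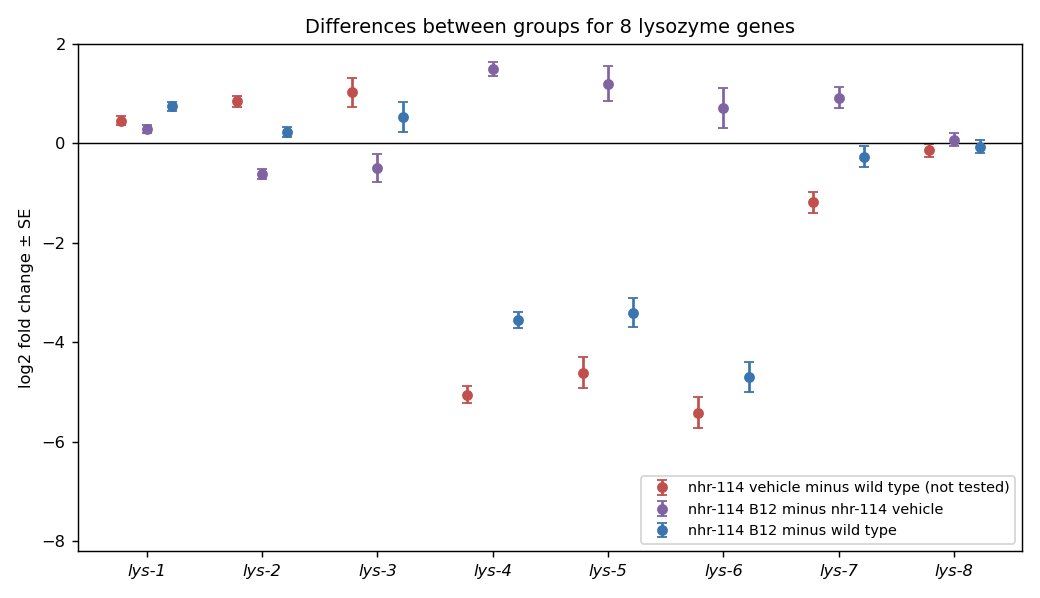
Log2 fold change ± SE of the 8 tested lys genes for the 3 differences between groups, from 1 fit over the 9 libraries. For lys-4, lys-5 and lys-6 the difference between mutant B12 and wild type stays between -4.70 and -3.41, whereas for lys-7 it is -0.26 and for lys-8 -0.07.

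Against wild type, the mutant with maternal B12 still had far less lys-4, lys-5 and lys-6. lys-4 and lys-5 were lower, lys-1 was higher, and lys-2, lys-3, lys-7 and lys-8 did not pass. lys-6 passed the filter only through wild type, where it is high, so its difference is described without a test. Of all genes tested 6.14% were lower and 7.28% higher in this comparison. The groups were apart in 4 genes, lys-1 higher and lys-4, lys-5 and lys-6 lower, against 15.9% and 15.3% of all genes tested. This comparison shares the wild-type libraries with the comparison that chose the genes. Its p-values for lys-4 and lys-5 are therefore no independent support for their lower level.

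lys-4 with B12 was at 8.51% of the wild-type mean, with a log2 fold change of -3.55 ± 0.15 (adjusted p = 3.17e-07). lys-5 was at 9.43% (-3.41 ± 0.29, adjusted p = 4.14e-05) and lys-6 at 3.86% (-4.70 ± 0.30). For each of these 3 genes every B12 library lay below every wild-type library. A drop of at least 10-fold occurred in 0.182% of all genes tested, but these 3 genes were chosen for low levels in the mutant.

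The mean of lys-1 was farther from wild type with B12 than without it. lys-1 was higher with B12 than in wild type by 0.74 ± 0.09 on the log2 scale (adjusted p = 3.68e-04), at 167% of the wild-type mean against 137% in mutant vehicle. In TPM the mutant groups overlapped, at 505 to 536 with B12 and 436 to 507 with vehicle. lys-7 was at 83.3% of the wild-type mean with B12 and its libraries overlapped wild type in CPM (-0.26 ± 0.20, adjusted p = 0.442). In TPM it was at 70.8%, and every B12 library (22.6 to 29.2) lay below every wild-type library (29.8 to 46.1). lys-2 was at 117% in CPM and overlapped wild type (0.23 ± 0.10, adjusted p = 0.170, and -0.044 on the TPM scale). lys-3 (0.54 ± 0.30, adjusted p = 0.273) and lys-8 (-0.07 ± 0.13, adjusted p = 0.788) did not pass either.

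lys-9 and lys-10 were at or near the limit of detection. lys-9 (WBGene00003098, chromosome I, 12454853 to 12455826) had 0 counts in each of the 9 libraries, which allows up to 3 counts or 0.180 to 0.207 CPM per library, for counting error only. lys-10 (WBGene00003099, chromosome IV, 8332826 to 8333518) had 5, 6 and 4 counts in wild type, 3, 0 and 3 in mutant vehicle and 0, 1 and 2 in mutant B12. Neither was tested. Every wild-type library had more lys-10 CPM than every mutant library, on counts of 0 to 6.

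Among all genes with a mean of at least 5 CPM, a few followed lys-4, lys-5 and lys-6 closely. Likeness was measured as the root-mean-square difference of centred log2 CPM over the 9 libraries, where 0 is the same profile. lys-5 was at 0.32 from lys-4, and lys-6 at 0.61. Outside the family, the nearest to lys-4 were pmp-5, an ABC transporter gene, at 0.32, the methionine sulfoxide reductase gene msra-1 at 0.35, and the dopamine receptor gene dop-4 at 0.50. The nearest to lys-5 were dop-4 (0.39), pmp-5 (0.40) and the aspartyl protease gene asp-13 (0.49). The nearest to lys-6 were msra-1 (0.44), the C-type lectin gene clec-47 (0.50) and pmp-5 (0.68).

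These genes were also low in the mutant, from 1.98% (clec-47) to 7.97% (asp-13) of the wild-type mean in mutant vehicle. There lys-4, lys-5 and lys-6 stood at 3.01%, 4.02% and 2.31%. pmp-5 stood at 620 ± 61.5 CPM in wild type, 27.8 ± 1.44 in mutant vehicle and 61.7 ± 12.97 in mutant B12 (SD, n = 3 each). msra-1 stood at 1512 ± 261, 38.9 ± 3.72 and 75.4 ± 8.74 CPM in the same order. With B12, pmp-5 was at 9.96%, dop-4 at 10.4%, asp-13 at 15.1%, msra-1 at 4.98% and clec-47 at 2.34% of the wild-type mean. Since these genes were picked for their likeness, the values describe them and support nothing further.

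**Figure D5:**
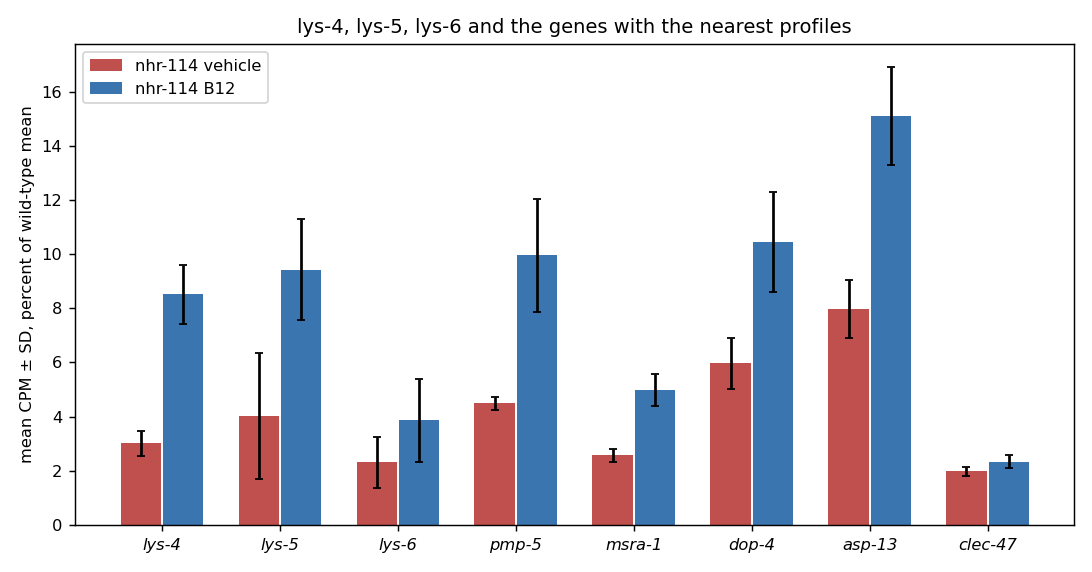
Mean CPM ± SD in mutant vehicle and mutant B12 as percent of the wild-type mean, for lys-4, lys-5, lys-6 and the 5 genes with the nearest profiles over the 9 libraries (n = 3 per group). In mutant vehicle the bars run from 1.98% for clec-47 to 7.97% for asp-13, and with B12 from 2.34% to 15.1%.

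The invertebrate-type lysozymes differed from one another as well. Of the 6 ilys genes, 2 were tested. ilys-5 (WBGene00017691, chromosome X, 6533490 to 6536840) was the highest lysozyme gene of either type in wild type, with 3166, 4143 and 3451 TPM. It stood at 1163, 1462 and 1232 CPM in wild type, 210, 260 and 211 CPM in mutant vehicle, and 734, 761 and 738 CPM in mutant B12. All 3 groups were apart. ilys-5 rose with B12 by 1.71 ± 0.11 on the log2 scale (adjusted p = 5.73e-06) to 57.9% of the wild-type mean, and stayed below wild type (-0.79 ± 0.11, adjusted p = 0.00128). lys-4 rose by 1.50 ± 0.14 from a lower start and reached 8.51%. The difference between these rises was not tested.

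ilys-4 was low and went the other way. It stood at 7.80, 6.86 and 9.64 CPM in wild type, 17.3, 18.1 and 17.3 CPM in mutant vehicle, and 13.7, 13.2 and 11.4 CPM in mutant B12, with no overlap between groups. It rose in mutant vehicle against wild type by 1.12 ± 0.15 (adjusted p = 3.41e-04) and fell with B12 by 0.46 ± 0.15 on the log2 scale (adjusted p = 0.0257). ilys-1, ilys-2, ilys-3 and ilys-6 were below the filter, with 0 to 18 counts per library.

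Other antimicrobial genes moved in both directions. Of 17 tested saposin-like spp genes, whose products permeabilise membranes, 6 rose and 2 fell in mutant vehicle against wild type, where 18.3% of all genes tested rose and 18.3% fell. With B12, 4 rose and 6 fell, against 22.6% and 23.8% of all genes tested. spp-4 fell from 57.3 ± 5.38 to 18.6 ± 1.55 CPM in mutant vehicle and stood at 54.4 ± 5.84 CPM with B12 (log2 rise 1.55 ± 0.12, adjusted p = 1.11e-05). spp-18 showed the opposite order, with 22.9 ± 3.01, 67.0 ± 6.53 and 26.5 ± 4.49 CPM (SD, n = 3 each). The median log2 fold change of the spp genes with B12 was -0.0026.

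The abf, cnc and nlp groups encode antimicrobial peptides. Of 15 tested, 8 rose and 0 fell in mutant vehicle against wild type, where 18.3% of all genes rose and 18.3% fell, with a median log2 fold change of 1.51 against 0.01 over all genes. With B12, 2 rose and 6 fell, against 22.6% and 23.8% of all genes. The epidermal peptide gene nlp-29 stood at 5.92 ± 2.38 CPM in wild type, 39.3 ± 6.72 in mutant vehicle and 13.8 ± 1.46 in mutant B12, whereas nlp-30 rose with B12 from 17.3 ± 4.69 to 44.9 ± 2.45 CPM (SD, n = 3 each). nlp-29 and its relatives lie close together and are alike in sequence, so their separate values are uncertain. Of the thaumatin family 1 gene was tested, thn-2, which rose with B12 by 0.63 ± 0.17 on the log2 scale (adjusted p = 0.0117).

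Genes of pathways known to control lysozymes were counted in the same way. The counts are of RNA changes of the listed genes, and the activity of a pathway was not tested. Over all genes tested, 18.3% rose and 18.3% fell in mutant vehicle, and 22.6% rose and 23.8% fell with B12. Of 7 genes of the PMK-1 p38 pathway, 6 rose and 1 fell in mutant vehicle, and 0 rose and 4 fell with B12. Its adaptor gene tir-1 stood at 49.6 ± 3.39, 81.7 ± 4.88 and 48.3 ± 1.10 CPM in wild type, mutant vehicle and mutant B12. Of 10 genes of the DBL-1 pathway, 4 rose and 2 fell, and 1 rose and 5 fell with B12, among them the type I receptor gene sma-6 (-0.91 ± 0.11, adjusted p = 1.32e-04). Of 10 genes of insulin signalling and DAF-16 targets, 2 rose and 1 fell, and 1 rose and 6 fell with B12. The mutant vehicle counts of the DBL-1 and insulin lists were near or below the share over all genes, apart from the 4 rises of the DBL-1 list.

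daf-16 itself, the FOXO factor gene, stood at 183 ± 8.38 CPM in wild type, 181 ± 7.79 in mutant vehicle and 111 ± 12.7 in mutant B12 (SD, n = 3 each). Its fall with B12 passed (-0.70 ± 0.09, adjusted p = 2.74e-04). lys-7 rose in the same comparison, and any link between these changes was not tested. The receptor gene daf-2 stood at 89.8 ± 12.7, 128 ± 4.26 and 64.2 ± 5.66 CPM. Of 14 other immune regulators, 10 rose and 0 fell in mutant vehicle, against 18.3% and 18.3% of all genes. With B12, 0 rose and 8 fell, against 22.6% and 23.8%, including the Tribbles-like kinase gene nipi-3 (-1.42 ± 0.09) and nhr-49, another receptor of the HNF4 family (-1.15 ± 0.08).

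Markers of tissues were counted beside these genes. The shares over all genes were again 18.3% up and 18.3% down in mutant vehicle, and 22.6% up and 23.8% down with B12. Of 12 intestine markers 9 rose and 0 fell in mutant vehicle, and 2 rose and 8 fell with B12. Their summed level ran from 8812 to 10994 CPM in wild type, 9776 to 11577 in mutant vehicle and 8399 to 9347 in mutant B12. The range in mutant vehicle overlapped wild type and lay above that of mutant B12. Of 10 hypodermis markers 1 rose and 6 fell in mutant vehicle, and 5 rose and 2 fell with B12, with summed levels of 9305 to 11462, 3551 to 5227 and 10529 to 13578 CPM. Of 32 spermatogenesis genes 0 rose and 21 fell in mutant vehicle, and 26 rose and 0 fell with B12.

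In pharynx 1 of 9 markers rose in mutant vehicle and 2 fell with B12, and the same counts held for 9 neuron markers, all near or below the shares over all genes. Of 8 muscle markers 1 fell in mutant vehicle, and unc-15, the paramyosin gene, had the smallest adjusted p with B12 (edgeR adjusted p = 0.0585). No marker found in the files was at 0 in every library; 1 of 10 listed neuron markers and 2 of 34 spermatogenesis genes were not matched. The part of these shifts in the lysozyme values was not tested, apart from the fit with the spermatogenesis level above.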

How the data were processed

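RNA of whole L4 animals was sequenced as paired ends from NEBNext Ultra libraries, per the labels' protocols. The authors quantified transcripts with kallisto 0.46.0 against a WormBase reference (WS245) after bcl2fastq, as the labels and the submitters' processing notes state. The sources used here do not say if strand was kept. The authors deposited estimated counts for 30939 transcripts per sample, unnormalised, and a CPM table of 20306 gene entries, each column scaled to a common total. The deposited effective lengths of the transcripts, given per library, are another column, used for TPM. Of 18661 entries matched by name, 99.9% agree within 1% with CPM from the summed counts.

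Counts were summed per gene (20445 genes, 20166 matched to the Ensembl WBcel235 annotation) and rounded. edgeR 4.0.16 in R 4.3.3 used filterByExpr, TMM, a robust quasi-likelihood fit over 9 libraries and Benjamini-Hochberg adjustment over 14796 genes, with calls at an adjusted p under 0.05. SE is the log2 fold change divided by the square root of F. Log2 CPM used a prior count of 2. Counting floors (3 counts) and n limit precision for low genes.

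The members, gene lists and tests were chosen with earlier results of these data known. Named genes followed a rule: all lys and ilys genes, nhr-114, flanking genes, the 3 nearest profiles to lys-4, lys-5 and lys-6, and up to 3 genes per list with the smallest adjusted p with B12, from which a subset is described. In simulated data of 14650 genes for mutant B12 against vehicle, 20.3%, 57.1% and 84.8% of genes changed 1.5-fold, 2-fold and 4-fold were recovered, and 2.68% of calls were false. No replicate pair was near sampling noise (chi-square per gene 6.93 or more). Alternatives were RLE and upper quartile scaling, 2 filters, fits of 6 libraries, DESeq2 1.42.0, a replicate block, limma 3.58.1 on log2(TPM + 1) and log2(deposited CPM + 1), the spermatogenesis covariate, and leaving out each library.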

Additional observations from a re-analysis of the deposited data

How the results depend on the processing

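In mutant B12 against wild type, lys-4 and lys-5 passed as lower and lys-1 as higher under all 19 alternatives. Since lys-4 and lys-5 were chosen for low values in the mutant, this is no independent support for their difference. lys-6, not tested there, had log2 fold changes between -4.89 and -3.65. Over all genes there were between 1336 and 2118 calls when 1 library was left out (1985 with all), and 4531 with limma on TPM. With limma on log2(TPM + 1), which changes both the scale and the test, the median of all genes was -0.16 with B12 and -0.22 against wild type, from -0.040 and -0.00068, and the share of higher calls was 36% and 17.2%, from 48.6% and 54.3%. With limma on log2(deposited CPM + 1) the shares were 45.4% and 42.7%. In mutant B12 against mutant vehicle, higher lys genes numbered 2 to 5 and lower ones 1 to 1 with 1 library left out, with 5500 to 7084 calls in all, and 0 and 0 with the spermatogenesis covariate, where 29 genes were called. With TPM, lys-1 did not pass there (0.14, adjusted p = 0.173), lys-8 turned to -0.085 and lys-2 against wild type to -0.044. lys-8 also turned to -0.31 with the covariate and, against wild type, ran from -0.15 to 0.095 with 1 library left out, at 0.095 without wild-type replicate 2 and 0.031 without mutant B12 replicate 3. lys-6 passed with B12 without mutant B12 replicate 1 (1.03, adjusted p = 0.0448), on 3.58 to 14.1 estimated counts per mutant library. None of these lys-8 and lys-2 values passed the test. The cause was not tested. lys-3 had no value at 5 CPM. lys-6 had none for B12 against vehicle in the fit of 6 libraries, where it was below the filter.

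Same-numbered libraries did not deviate together in mutant B12 and mutant vehicle (correlations 0.03, -0.10 and 0.00), and 1 of 6 correlated best with its own number. Against wild type they were -0.02, 0.37 and 0.13, with 3 of 6. The replicate block left 4 lys genes higher and 1 lower with B12, with 6617 calls in all. Against wild type it left lys-1 higher and lys-4 and lys-5 lower, with 1735 calls in all. Depth limits lys-5, lys-6, lys-9 and lys-10.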

Other observations

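kallisto divided lys-1 between its 2 annotated transcripts unevenly across libraries. The shorter one, Y22F5A.4.1 with 1030 bases, held 14.2% of the gene's estimated counts in all and Y22F5A.4.2, with 1107 bases, held 85.8%. Within wild type the share of the shorter transcript was 0.241%, 8.85% and 40.2% in replicates 1, 2 and 3. In mutant vehicle it was 31.4%, 12.5% and 5.33%, and in mutant B12 20.1%, 7.14% and 7.03%. The spread within a group was thus as wide as the whole range, so no difference between groups can be read from it, while the gene sum varied little in wild type (341 to 351 CPM). lys-8 also has 2 transcripts in the reference, and all of its 22279 counts were given to the longer one.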
